A study of Mus musculus with 36 samples.

Results

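Genes of cholesterol and fatty acid synthesis were followed in the lungs of A/J and C3H mice, with and without the tobacco carcinogen NNK. The set holds 35 of the 19938 genes measured and was listed by gene symbol, with earlier results of these data known. It has 17 enzymes of the cholesterol arm, 6 genes that control sterol-responsive transcription or carry sterol (Insig1, Insig2, Scap, Srebf1, Srebf2, Stard4), 11 enzymes of the fatty acid arm, and Mfsd2a, a transporter of lysophosphatidylcholine. Each gene was read by the probe set with the highest mean, and all 35 were among the 14953 genes tested, which left out the lowest 25% by mean level.

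Total RNA of lung was measured on Affymetrix arrays, and the labels give the mice as A/J or C3H, treated with NNK or untreated. NNK is the nitrosamine 4-(methylnitrosamino)-1-(3-pyridyl)-1-butanone, injected once a week for 4 weeks at 100 mg/kg. NNK lungs were taken at weeks 3, 6, 9 and 12 after exposure, and untreated lungs at weeks 0, 3, 6, 9 and 12, which makes 18 groups with 2 arrays each (36 arrays). The labels name no vehicle for the untreated mice and no age. Nothing tells whether a group's 2 arrays came from different animals, so the p-values rest on a spread that may be only technical.

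Cells make cholesterol from acetyl-CoA through mevalonate, squalene and lanosterol, and fatty acids from the same acetyl-CoA through malonyl-CoA. The SREBP transcription factors, Srebf1 and Srebf2, drive both arms: when sterol in the endoplasmic reticulum is low, Scap carries them to the Golgi for cleavage, and Insig proteins hold Scap back when sterol is plentiful. In the lung, alveolar type 2 cells make fatty acids and cholesterol for the phospholipid-rich surfactant.

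Levels below are log2(intensity + 16) after quantile normalization, changes are differences on that scale, and a gene is called where its adjusted p, from 1 fit over all 36 arrays and all 14953 genes, is under 0.05. On such arrays a level can be compared between samples but not between genes. Some counts below use an unadjusted p under 0.05 of such a fit. They come without the share of all genes at that threshold and are a description. Median intensities of the arrays, as deposited, ran from 285 to 347. The labelled tissue fits its markers: the 12 genes of the alveolar type 2 list had a mean of 12.60 to 12.91 in every array of weeks 3 to 12. Lor, a gene of cornified skin, was high in 3 arrays, with 12.74 and 13.59 at week 6 and 13.65 in array 2 of week 0, all from untreated A/J lungs, but at most at 7.40 in the other 33 arrays. The acute-phase gene Saa3 was above 10 in 5 other arrays, at 12.32 in array 2 of untreated A/J week 3, 10.42 and 11.76 in NNK A/J week 6 and 13.33 and 11.76 in NNK C3H week 3, against 7.10 to 9.26 in the other 31. The main counts are also given without week 6 and the week 0 array with Lor, and without the 5 arrays with Saa3. Since the RNA is of bulk lung, fewer cells of a type and less RNA per cell cannot be told apart.

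The promoters of 28 of the 35 genes were in the RefSeq table of the mouse reference genome (build GRCm38.p6), as windows of 250 bases before to 50 bases after a gene's start; Scd1, Scd2, Fdft1, Fads1, Fdps, Stard4 and Sqle had no entry. The 5 windows below are those of the 2 genes in each arm with the smallest p for NNK in A/J lungs among genes with an entry, and of Hmgcs1, the member whose window held the sterol response letters TCACNCCAC. Each is read 5′ to 3′ in the direction of the gene, and the capitals mark TCACNCCAC, CCAAT or GGGCGG on either strand, so that ATTGG and CCGCCC are the last pair read from the other strand.
Sc5d (chr9:42264251-42264550, minus strand): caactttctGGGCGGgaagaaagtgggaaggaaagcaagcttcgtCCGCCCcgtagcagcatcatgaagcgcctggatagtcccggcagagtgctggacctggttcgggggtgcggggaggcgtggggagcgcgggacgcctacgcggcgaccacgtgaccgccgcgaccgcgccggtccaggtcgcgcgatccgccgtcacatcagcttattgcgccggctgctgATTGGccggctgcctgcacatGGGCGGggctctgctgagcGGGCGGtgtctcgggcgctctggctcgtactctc
Idi1 (chr13:8885356-8885655, plus strand): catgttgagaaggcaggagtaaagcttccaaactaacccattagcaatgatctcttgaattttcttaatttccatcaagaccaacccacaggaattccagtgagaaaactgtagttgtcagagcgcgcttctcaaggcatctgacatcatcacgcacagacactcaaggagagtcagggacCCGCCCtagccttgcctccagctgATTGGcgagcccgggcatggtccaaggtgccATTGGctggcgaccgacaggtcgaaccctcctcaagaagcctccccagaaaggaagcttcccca
Hmgcs1 (chr13:119690101-119690400, plus strand): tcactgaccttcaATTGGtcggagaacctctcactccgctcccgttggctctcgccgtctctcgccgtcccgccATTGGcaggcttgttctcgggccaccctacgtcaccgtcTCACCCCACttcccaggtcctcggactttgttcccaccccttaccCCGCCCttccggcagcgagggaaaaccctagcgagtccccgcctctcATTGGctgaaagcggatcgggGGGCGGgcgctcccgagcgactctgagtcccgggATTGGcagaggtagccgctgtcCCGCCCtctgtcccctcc
Fads2 (chr19:10101454-10101753, minus strand): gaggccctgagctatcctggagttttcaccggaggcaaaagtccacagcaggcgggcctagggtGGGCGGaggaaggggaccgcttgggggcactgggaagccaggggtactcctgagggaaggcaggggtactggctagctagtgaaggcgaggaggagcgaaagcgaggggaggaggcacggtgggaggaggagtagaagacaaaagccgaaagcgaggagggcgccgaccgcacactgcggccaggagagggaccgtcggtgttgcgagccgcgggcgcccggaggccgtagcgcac
Elovl1 (chr4:118427843-118428142, plus strand, the more upstream of its 2 starts): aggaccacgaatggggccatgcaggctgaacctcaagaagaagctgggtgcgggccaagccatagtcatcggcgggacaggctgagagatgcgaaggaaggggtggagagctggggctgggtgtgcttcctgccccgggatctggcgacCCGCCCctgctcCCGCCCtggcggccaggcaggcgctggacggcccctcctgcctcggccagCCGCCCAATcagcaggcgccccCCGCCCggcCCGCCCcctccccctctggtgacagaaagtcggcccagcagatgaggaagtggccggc
In the Elovl1 window 1 CCAAT overlaps 1 CCGCCC by 2 bases. The letters TCACNCCAC, on either strand, stood in 1 of the 28 genes' windows, with its first base at -137 from the start of Hmgcs1, and in 1.436% of the 27025 genes of the table. CCAAT, bound by NF-Y, stood in 24 of 28 genes (14 of 14 in the cholesterol arm and 5 of 8 in the fatty acid arm), against 41.058% of all genes. GGGCGG, bound by Sp1, stood in 23 of 28 genes (13 of 14 in the cholesterol arm and 5 of 8 in the fatty acid arm), against 38.202% of all genes. CACGTG, not capitalised, stood in 5 of 28, against 8.093% of all genes. These are matches of letters in the reference strain, and no binding was measured.

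NNK went with higher levels of most sterol and fatty acid synthesis genes in A/J lungs. As the mean of weeks 3 to 12, 26 of the 35 genes were called higher and 0 lower, while 7.44% of all genes tested were called higher and 2.6% lower. Since the list was chosen with earlier results of these data known, the count beside these shares is a description and no test of the list. The calls covered 16 of 17 genes of the cholesterol arm, 8 of 11 of the fatty acid arm, 1 of the 6 genes of control and sterol transfer (Srebf1), and Mfsd2a. The median change was 0.25 over the cholesterol arm and 0.17 over the fatty acid arm, against 0.01 over all genes tested. Most changes were small: the called genes other than Mfsd2a lay between 0.11 for Scd2 and 0.37 for Idi1, which is 1.08-fold and 1.29-fold.

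No gene had all 8 NNK arrays above all 8 untreated arrays of weeks 3 to 12 in A/J (0 of 35, against 0.415% of all genes). Within the weeks, 25 of the 35 genes were higher on average with NNK at all 4 weeks in A/J, and 2 of 35 in C3H. The share of all genes with that pattern is not given here, so these counts are a description. When any 1 of the 36 arrays was left out, between 18 and 30 genes were called, and 18 of the 26 kept their call each time. Without the arrays of week 6 and the week 0 array with skin genes 14 of the 26 were called, with changes of 0.14 to 0.96 over the 26. Those that lost their call were Hmgcs1, Mvk, Pmvk, Fdft1, Lss, Cyp51, Tm7sf2, Msmo1, Hsd17b7 and Ebp of the cholesterol arm and Fads1 and Scd2 of the fatty acid arm. Without the 5 arrays with Saa3, where the A/J mean rests on weeks 3, 9 and 12, all 26 and 3 more genes were called. The fit shares 1 spread over both strains, while the median residual SD of the 35 genes was 0.134 in A/J and 0.0783 in C3H. With 1 weight per strain 19 genes were called, with array weights 16, and with the A/J arrays alone 12.

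**Figure D1:**
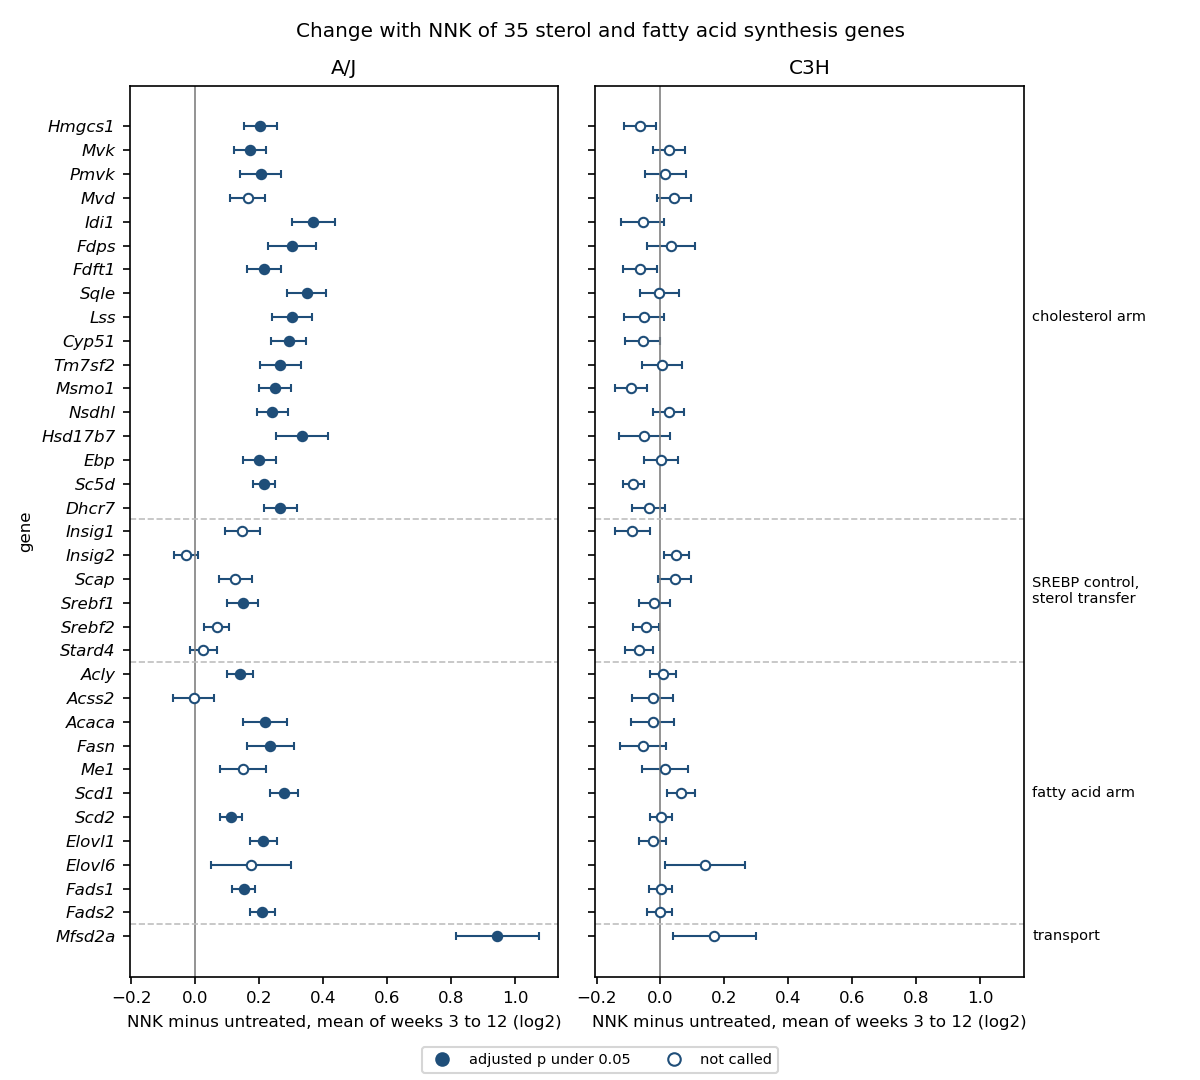
Change with NNK in A/J (left) and C3H lungs (right) for the 35 genes, as the mean over weeks 3 to 12 of NNK minus untreated (log2, points) with the standard error of the fit (bars); filled points have an adjusted p under 0.05. In A/J 26 points are filled, all right of 0 and with Mfsd2a at 0.95, and in C3H none is.

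The first enzymes of the cholesterol arm, from acetyl units to squalene, were all higher on average in NNK-treated A/J lungs, and all but 1 were called. Idi1, which interconverts the isoprene units that build squalene, lay at 9.66 to 10.24 (median 9.97) in the 8 NNK arrays, against 9.31 to 9.79 (median 9.62) in the 8 untreated arrays of the same weeks, a change of 0.37 ± 0.07 (SE, adjusted p = 0.00123). The ranges of its groups overlap only between 9.66 and 9.79. With week 0 counted in, the highest untreated array of Idi1 was at 10.02, above the NNK median. The changes were 0.20 (adjusted p = 0.0132) for Hmgcs1, which makes HMG-CoA, 0.17 (adjusted p = 0.0301) for mevalonate kinase (Mvk) and 0.21 (adjusted p = 0.0463) for phosphomevalonate kinase (Pmvk). Fdps, which makes farnesyl diphosphate, changed by 0.30 (adjusted p = 0.0126), and Fdft1, the squalene synthase, by 0.21 (adjusted p = 0.0129). Mvd, the mevalonate diphosphate decarboxylase, was the gene of this arm that was not called, at 0.16 ± 0.05 (SE, adjusted p = 0.0565), with 8.62 to 9.11 (median 8.88) in NNK arrays and 8.47 to 8.88 (median 8.75) in untreated arrays. Mvk lost its call in 9 of 36 fits that each left out an array, and Pmvk in 23. Without the arrays with skin genes and week 6 the adjusted p was 0.107 for Hmgcs1, 0.056 for Mvk, 0.257 for Pmvk and 0.0841 for Fdft1.

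The enzymes from squalene to lanosterol rose as well. Sqle, the squalene epoxidase, ranged over 9.60 to 10.15 (median 9.97) in NNK arrays, against 9.38 to 9.77 (median 9.54) in untreated arrays, and rose by 0.35 ± 0.06 (SE, adjusted p = 0.000955). Lss, which closes the rings to lanosterol, ranged over 9.45 to 9.84 (median 9.55) with NNK, against 8.87 to 9.60 (median 9.30) without, a rise of 0.30 ± 0.06 (SE, adjusted p = 0.0033). In both genes the lowest NNK arrays lay below the highest untreated ones, and every array of NNK Lss lay above the untreated median. Without the arrays with skin genes and week 6 Sqle kept its call (adjusted p = 0.00984) and Lss did not (adjusted p = 0.0596).

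All 8 enzymes that turn lanosterol into cholesterol in this set were called higher in A/J lungs, of which Nsdhl, Sc5d and Dhcr7 kept their call without the arrays with skin genes and week 6. The adjusted p there was 0.0515 for Cyp51, 0.057 for Msmo1, 0.0715 for Tm7sf2, 0.0936 for Hsd17b7 and 0.181 for Ebp. Cyp51, the lanosterol demethylase, lay at 8.68 to 9.25 (median 8.99) with NNK and 8.44 to 8.91 (median 8.66) without, a change of 0.29 ± 0.05 (SE, adjusted p = 0.00161). Tm7sf2, a sterol reductase that follows it, lay at 8.56 to 9.01 (median 8.75) with NNK and 8.16 to 8.63 (median 8.48) without, a change of 0.27 ± 0.06 (SE, adjusted p = 0.00989). The NNK median of Cyp51 and of Tm7sf2 lay above all 8 untreated arrays. For Msmo1, which oxidises the sterol methyl groups, the ranges were 10.06 to 10.51 (median 10.31) with NNK and 9.89 to 10.32 (median 10.02) without, a change of 0.25 ± 0.05 (SE, adjusted p = 0.00309). Nsdhl, a sterol dehydrogenase of the same step, had 10.25 to 10.65 (median 10.44) with NNK and 10.10 to 10.37 (median 10.19) without, a change of 0.24 ± 0.05 (SE, adjusted p = 0.00279). Hsd17b7, the keto-reductase of that step, had 8.09 to 8.71 (median 8.51) with NNK and 7.61 to 8.46 (median 8.13) without, a change of 0.33 ± 0.08 (SE, adjusted p = 0.0116). In these 3 genes of 1 step the NNK median lay above the untreated highest array only for Nsdhl and Hsd17b7.

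Sc5d, a sterol desaturase that acts late in the pathway, had the smallest p of the arm. It lay at 10.73 to 11.04 (median 10.93) with NNK and 10.58 to 10.80 (median 10.68) without, a change of 0.21 ± 0.03 (SE, adjusted p = 0.000303). Dhcr7, which makes cholesterol in the final step, lay at 9.12 to 9.58 (median 9.30) with NNK and 8.95 to 9.29 (median 9.02) without, a change of 0.27 ± 0.05 (SE, adjusted p = 0.00217). The NNK medians of both genes lay above all 8 untreated arrays, though the lowest NNK array did not. Ebp, the sterol isomerase, changed by 0.20 (adjusted p = 0.0169).

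Of the 6 genes that control the pathway or carry sterol only Srebf1 was called. Srebf1, the SREBP gene more tied to fatty acid synthesis, lay at 9.93 to 10.34 (median 10.06) with NNK and 9.74 to 10.10 (median 9.90) without, a change of 0.15 ± 0.05 (SE, adjusted p = 0.048) that was lost in 26 of 36 fits without 1 array. Srebf2, the SREBP gene more tied to sterol synthesis, had a difference of 0.07 (adjusted p = 0.286). Insig1, itself a known SREBP target, had a difference of 0.15 (adjusted p = 0.0839), and Scap one of 0.12 (adjusted p = 0.123). The differences for Insig2 and for Stard4, which moves cholesterol between membranes, were -0.03 (adjusted p = 0.664) and 0.03 (adjusted p = 0.74). The arrays measure transcripts, and SREBP activity is set by cleavage of the protein.

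In the fatty acid arm 3 desaturases and Elovl1 had the smallest p-values. Scd1, which makes monounsaturated fatty acids, lay at 13.45 to 13.81 (median 13.72) with NNK and 13.06 to 13.55 (median 13.45) without, a change of 0.28 ± 0.04 (SE, adjusted p = 0.00038). Fads2 and Fads1 make polyunsaturated fatty acids. Fads2 lay at 11.75 to 12.04 (median 11.91) with NNK and 11.57 to 11.97 (median 11.69) without, a change of 0.21 ± 0.04 (SE, adjusted p = 0.00142). For Fads1 the ranges were 12.11 to 12.44 (median 12.26) with NNK and 11.96 to 12.26 (median 12.10) without, a change of 0.15 ± 0.04 (SE, adjusted p = 0.011). Elovl1, which elongates very long chains, lay at 12.39 to 12.78 (median 12.61) with NNK and 12.29 to 12.47 (median 12.42) without, a change of 0.21 ± 0.04 (SE, adjusted p = 0.00261). The NNK medians of Scd1, Fads1 and Elovl1 lay above all 8 untreated arrays of weeks 3 to 12. Scd2, another stearoyl-CoA desaturase, changed by 0.11 (adjusted p = 0.0375). Without the arrays with skin genes and week 6 the adjusted p was 0.0649 for Fads1 and 0.0624 for Scd2, and the other 6 called genes of the arm kept their calls.

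Of the enzymes that build palmitate and extend it, Acly, Acaca and Fasn were called. Acly, which makes cytosolic acetyl-CoA from citrate, changed by 0.14 (adjusted p = 0.0287). The change of Acaca, the acetyl-CoA carboxylase, was 0.22 (adjusted p = 0.0421), and that of Fasn, the fatty acid synthase, 0.23 (adjusted p = 0.0418). The calls of Acly, Acaca and Fasn were lost in 6, 11 and 8 of the 36 fits without 1 array. Me1, a malic enzyme that supplies NADPH, was not called at 0.15 (adjusted p = 0.184), and neither was Elovl6, which extends palmitate, at 0.17 ± 0.12 (SE, adjusted p = 0.383). Elovl6 spanned 9.30 to 11.15 (median 9.71) with NNK and 8.93 to 10.54 (median 9.91) without, the widest ranges in the arm. Acss2, which makes acetyl-CoA from acetate, averaged 9.70 ± 0.26 with NNK and 9.71 ± 0.16 without (SD, n = 8 arrays each, adjusted p = 0.975).

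Mfsd2a changed most of the 35 genes. Its 8 NNK arrays in A/J lay at 9.49 to 11.08 (median 10.33), against 8.97 to 9.78 (median 9.33) in the 8 untreated arrays, a change of 0.95 ± 0.13 (SE, adjusted p = 6.08e-05), or 1.93-fold. 1 of the 8 NNK arrays, array 2 of week 6 at 9.49, lay below the highest untreated arrays, and the other 7 lay above them all. Alveolar type 2 markers moved alongside: their mean was 12.70 to 12.91 in NNK arrays of A/J, against 12.67 to 12.73 in untreated arrays, and their part in the change of Mfsd2a and of the arms was not tested.

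By week, the cholesterol arm was higher with NNK throughout in A/J lungs, and the fatty acid arm lay apart at weeks 9 and 12. The mean of the cholesterol arm differed between NNK and untreated lungs by 0.33 at week 3, 0.29 at week 6, 0.25 at week 9 and 0.16 at week 12. The mean of the fatty acid arm differed by 0.18, -0.02, 0.25 and 0.27 at the same weeks. For the cholesterol arm both NNK arrays lay above both untreated arrays at each week: 9.90 and 9.80 against 9.39 and 9.66 at week 3, 9.86 and 9.61 against 9.43 and 9.47 at week 6, 9.75 and 9.96 against 9.60 and 9.61 at week 9, and 9.66 and 9.69 against 9.55 and 9.49 at week 12. The fatty acid arm had 11.64 and 11.84 with NNK against 11.47 and 11.65 without at week 3, and 11.54 and 11.45 against 11.61 and 11.41 at week 6, so the groups overlapped at these weeks. It had 11.42 and 11.57 with NNK against 11.24 and 11.26 without at week 9, and 11.90 and 11.82 against 11.67 and 11.50 at week 12, where they did not. At week 3 the fatty acid groups overlapped only through array 2 of the untreated lungs (11.65), which held Saa3 at 12.32. At week 6 both untreated arrays held skin genes and both NNK arrays held Saa3. The part of these arrays in the time course of either arm was not tested, nor was the difference between the arms.

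**Figure D2:**
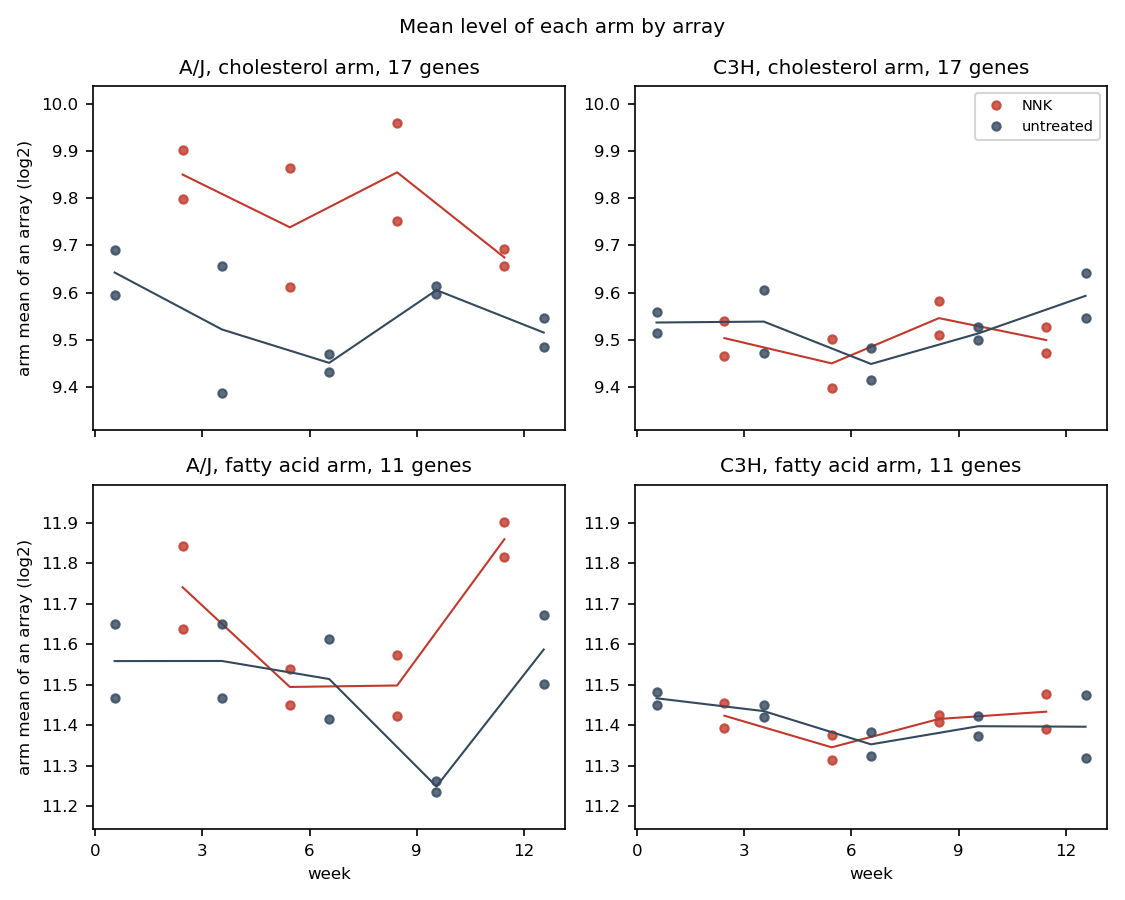
Mean level (log2) of the 17 cholesterol genes (top) and the 11 fatty acid genes (bottom) in each array by week, in A/J (left) and C3H (right); points are arrays, lines join the means of 2 arrays, and NNK points are drawn left of untreated ones. In A/J both NNK arrays of the cholesterol arm lie above both untreated arrays of the same week at weeks 3, 6, 9 and 12. Those of the fatty acid arm do so at weeks 9 and 12. Array 2 of untreated A/J week 3 and both NNK A/J arrays of week 6 held Saa3. Both untreated A/J arrays of week 6 held skin genes. In C3H the difference of means at a week is at most 0.09 in size for either arm.

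Gene by gene, both NNK arrays lay above both untreated arrays for 23 of the 35 genes at week 3 (18.5% of all genes), 18 at week 6 (32%), 24 at week 9 (29.4%) and 26 at week 12 (17.9%) in A/J. In the cholesterol arm these were 15, 14, 11 and 11 of 17, and in the fatty acid arm 5, 2, 10 and 10 of 11. Idi1, Sqle, Cyp51, Nsdhl, Sc5d, Fads1, Fads2 and Mfsd2a were separated so at all 4 weeks. No share of all genes separated at all 4 weeks is given here to set beside them. In C3H the counts were 5 of 35 at week 3 (17% of all genes), 5 at week 6 (25.8%), 6 at week 9 (13.7%) and 1 at week 12 (14.3%). Both NNK arrays lay below both untreated arrays for 9, 7, 5 and 7 of the 35 genes at these weeks in C3H. In A/J this held for 0 genes at each week. The share of all genes that lay below is not given here.

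With 2 arrays against 2, few genes were called at a single week in A/J. At week 3 Sc5d was called (1 of 35, against 0.288% of all genes higher), with 11.01 and 11.04 in NNK arrays and 10.61 and 10.68 in untreated arrays, a change of 0.38 ± 0.07 (SE, adjusted p = 0.00918). Without array 2 of untreated A/J week 3 the count was 14, without either NNK array of that week it was 0, and without either array of NNK or untreated A/J week 6 or of NNK C3H week 3 it was 2. Array 2 of untreated A/J week 3, with Saa3 at 12.32, is 1 of the 5 arrays named above, and without all 5 the count was also 14.

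At week 6, 5 of 35 genes were called higher in A/J, against 4.36% of all genes. Idi1 had 10.10 and 9.66 with NNK and 9.48 and 9.40 without, a change of 0.44 (adjusted p = 0.0492). Cyp51 had 9.09 and 8.80 with NNK and 8.44 and 8.50 without, a change of 0.48 (adjusted p = 0.0139). Msmo1 had 10.38 and 10.17 with NNK and 9.89 and 9.98 without, a change of 0.34 (adjusted p = 0.042). In all 3, array 1 of the NNK group was the higher one. Sc5d had 10.93 and 10.73 with NNK and 10.63 and 10.58 without, a change of 0.22 (adjusted p = 0.046), and Mfsd2a had 10.45 and 9.49 with NNK and 9.14 and 8.97 without, a change of 0.91 (adjusted p = 0.0359). The untreated arrays of this week are those with skin genes, both NNK arrays held Saa3 (10.42 and 11.76), and the part of these in the differences was not tested. The count was 0 without array 1 of NNK A/J week 6 or array 1 of untreated A/J week 6, 1 without array 2 of untreated A/J week 6, and 8 without array 2 of NNK A/J week 6. It was 3 without either array of NNK A/J week 3 or 12, of NNK C3H week 9 or 12, or of untreated C3H week 0, 6, 9 or 12.

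At week 9, 5 genes were called higher in A/J, against 1.17% of all genes. Scd1 had 13.50 and 13.77 with NNK and 13.06 and 13.27 without, a change of 0.47 (adjusted p = 0.0166). Fads2 had 11.92 and 12.00 with NNK and 11.60 and 11.57 without, a change of 0.37 (adjusted p = 0.0223). Elovl1 had 12.64 and 12.78 with NNK and 12.29 and 12.43 without, a change of 0.35 (adjusted p = 0.0361). These 3 fatty acid genes were thus called at the week when the untreated fatty acid arm was lowest. Idi1 had 9.91 and 10.24 with NNK and 9.72 and 9.31 without, a change of 0.56 (adjusted p = 0.0367), and Mfsd2a had 10.39 and 11.08 with NNK and 9.41 and 9.53 without, a change of 1.26 (adjusted p = 0.0207). The count was 9 without the 5 arrays with Saa3, none of which is of this week. It was 0 without array 2 of NNK A/J week 9, 3 without array 1 of that group and 1 without array 2 of untreated A/J week 9.

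At week 12 no gene was called by limma in A/J (0 of 35, against 0.0736% of all genes higher), while 8 had an unadjusted p under 0.05, all higher. Without array 1 of untreated A/J week 12 the count was 1. The mean of Elovl6 was highest at this week in both groups, with 11.15 and 10.80 in NNK arrays and 10.54 and 10.07 in untreated arrays, and it was lowest in untreated lungs of week 9, at 9.16 and 8.93. Fasn had 12.99 and 12.74 with NNK and 12.55 and 12.17 without at week 12, and Acaca 11.20 and 11.02 with NNK and 10.80 and 10.36 without. The mean of the adipocyte markers moved alongside: it was 9.95 and 9.54 in NNK A/J lungs of week 12, against 9.28 and 8.65 in untreated ones, and 7.81 and 7.88 in untreated A/J lungs of week 9. Over weeks 3 to 12 that mean ranged over 7.96 to 9.95 in NNK arrays and 7.81 to 9.28 in untreated arrays of A/J, and 2 of the list's 7 tested genes (Adig, Slc36a2) were called higher. The part of adipocyte RNA in the fatty acid arm was not tested.

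**Figure D3:**
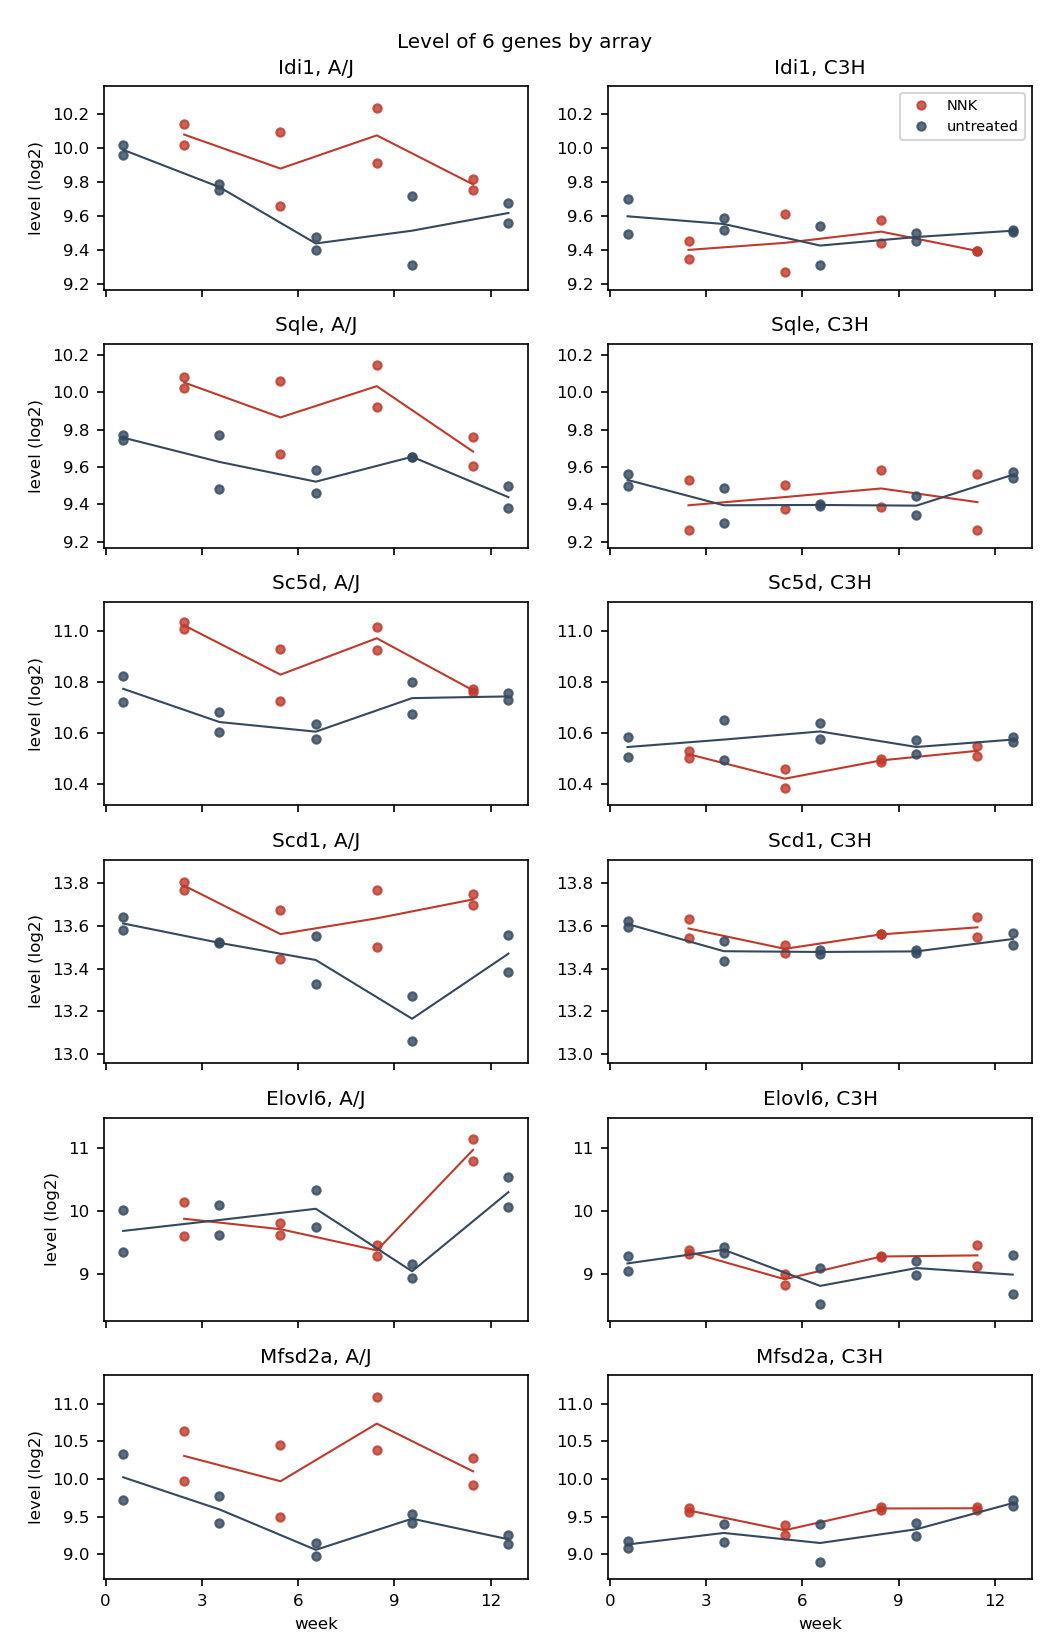
Level (log2) by week of Idi1, Sqle, Sc5d, Scd1, Elovl6 and Mfsd2a in A/J (left) and C3H (right); points are single arrays, lines join the means of 2 arrays, and NNK points are drawn left of untreated ones. In A/J Idi1, Sqle, Sc5d and Mfsd2a have both NNK arrays above both untreated arrays at all 4 weeks, and Elovl6 peaks at week 12 in both groups.

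In C3H lungs no sterol or fatty acid synthesis gene was called with NNK. As the mean of weeks 3 to 12 the count by limma was 0 of 35, against 0.0803% of all genes in either direction, and it was 0 at week 3 (0.0936% of all genes), week 6 (0.0134%), week 9 (0%) and week 12 (0%). The median change was -0.04 over the cholesterol arm and 0.00 over the fatty acid arm, against -0.01 over all genes. The largest was that of Mfsd2a, which lay at 9.25 to 9.63 (median 9.59) with NNK and 8.90 to 9.72 (median 9.40) without, a change of 0.17 ± 0.13 (SE, adjusted p = 0.9) with a 95% interval of -0.10 to 0.44. Sqle lay at 9.26 to 9.58 (median 9.44) with NNK and 9.30 to 9.57 (median 9.42) without, and the interval of its change was -0.13 to 0.12. Sc5d had 10.39 to 10.55 (median 10.50) in NNK arrays and 10.50 to 10.65 (median 10.57) in untreated arrays, a change of -0.08 ± 0.03 (SE, adjusted p = 0.689). Sc5d was the 1 gene with an unadjusted p under 0.05 over weeks 3 to 12, and such genes numbered 1, 2, 0 and 2 at weeks 3, 6, 9 and 12. The count over weeks 3 to 12 stayed 0 in all 36 fits without 1 array, and that of week 3 was 1 without array 2 of NNK C3H week 3. Both NNK arrays of C3H week 3 held Saa3 (13.33 and 11.76), its part was not tested, and without the 5 arrays with Saa3 the count over weeks 6 to 12 was 0, with 2 genes at an unadjusted p under 0.05. No gene had all 8 NNK arrays above all 8 untreated ones (0 of 35, against 0.0201% of all genes).

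The change with NNK differed between the strains for 8 of the 35 genes, all with a larger rise in A/J, against 1% of all genes with a higher and 0.127% with a lower difference. They were 7 of the 17 cholesterol genes and Mfsd2a, and 0 of the 11 fatty acid genes by limma, of which 8 had an unadjusted p under 0.05. The difference between the strains' changes was 0.30 ± 0.05 (SE, adjusted p = 0.00358) for Sc5d, 0.34 ± 0.07 (SE, adjusted p = 0.0251) for Msmo1 and 0.35 ± 0.08 (SE, adjusted p = 0.0337) for Cyp51. Idi1 differed by 0.42 ± 0.10 (SE, adjusted p = 0.0344), Dhcr7 by 0.30 ± 0.07 (SE, adjusted p = 0.0463), Lss by 0.35 ± 0.09 (SE, adjusted p = 0.049) and Sqle by 0.35 ± 0.09 (SE, adjusted p = 0.0496). For Mfsd2a it was 0.78 ± 0.18 (SE, adjusted p = 0.0407). In C3H these genes had differences of -0.09 for Msmo1 to 0.17 for Mfsd2a between NNK and untreated arrays. Msmo1 there lay at 9.51 to 9.83 (median 9.65) with NNK and 9.66 to 9.92 (median 9.73) without, and Cyp51 at 8.40 to 8.67 (median 8.54) with NNK and 8.53 to 8.76 (median 8.56) without. Idi1 lay at 9.27 to 9.61 (median 9.42) with NNK and 9.31 to 9.59 (median 9.51) without in C3H. The C3H ranges were 9.17 to 9.39 (median 9.34) with NNK and 9.21 to 9.48 (median 9.36) without for Dhcr7, and 9.00 to 9.27 (median 9.18) with NNK and 8.98 to 9.41 (median 9.20) without for Lss. In C3H the NNK and untreated ranges of all 8 genes thus overlapped. In the fatty acid arm the differences lay between 0.02 for Acss2 and 0.29 for Fasn, with adjusted p = 0.0534 for Elovl1 and 0.0579 for Fads2. The spread between arrays of a group was larger in A/J than in C3H, with a median residual SD of 0.134 against 0.0783 over the 35 genes.

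The count of 8 depended on single arrays and on the arrays that stand apart. Without week 6 and the week 0 array with skin genes 0 of the 8 were called by limma (adjusted p between 0.0948 and 0.308), with differences of 0.26 to 0.79, while all 8 had an unadjusted p under 0.05. Without the 5 arrays with Saa3, which leaves weeks 9 and 12 in both strains, the count by limma was also 0, and 21 of the 35 genes had an unadjusted p under 0.05. The share of all genes at an unadjusted p under 0.05 is not given here, so these counts do not make up for the lost calls. Sc5d kept its call in all 36 fits without 1 array. The count was 1 without NNK A/J week 9 array 2, untreated A/J week 12 array 2, NNK C3H week 6 array 2, NNK C3H week 9 array 2, untreated C3H week 3 array 1 or untreated C3H week 6 array 1. It was 2 without untreated A/J week 3 array 1, NNK C3H week 3 array 1, NNK C3H week 12 array 1, untreated C3H week 9 array 1 or either untreated C3H week 12 array. A count of 3 was found without either NNK A/J week 12 array or untreated A/J week 6 array 1, and of 4 without NNK A/J week 3 array 1, NNK A/J week 6 array 1, untreated A/J week 6 array 2, NNK C3H week 6 array 1 or either untreated C3H week 0 array. It was 5 without NNK A/J week 3 array 2, untreated C3H week 6 array 2 or untreated C3H week 9 array 2, 13 without NNK A/J week 6 array 2 and 21 without untreated A/J week 3 array 2.

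Levels of the set also differed between the strains. These comparisons share arrays with those of NNK above and are given side by side. In NNK-treated lungs 23 of 35 genes were higher and 2 lower in A/J than in C3H, while 23.5% of all genes were higher and 29.8% lower. In untreated lungs of weeks 0 to 12, 16 of 35 genes were higher and 8 lower in A/J than in C3H, while 19.8% of all genes were higher and 36.3% lower. In the cholesterol arm 12 of 17 genes were higher with NNK, against 8 higher and 3 lower untreated, and in the fatty acid arm 6 of 11 were higher and 1 lower with NNK, against 5 higher and 4 lower untreated. Without week 6 and the week 0 array with skin genes 13 genes were higher and 7 lower in untreated A/J lungs, and the calls of Fdps, Sqle, Me1 and Fads1 were lost. Without the 5 arrays with Saa3 15 were higher and 10 lower untreated, where Cyp51 lost its call, and 19 were higher and 2 lower with NNK, where Mvk, Mvd, Srebf2 and Scd1 did.

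Some markers of lung cells were also called between the strains. Of all genes 23.5% were higher and 29.8% lower in A/J with NNK, and 19.8% were higher and 36.3% lower untreated. A count near these shares is not particular to a cell type. Of 10 macrophage genes 1 was higher and 6 lower in A/J with NNK, with list means of 9.89 to 10.18 in A/J and 10.19 to 10.36 in C3H, and 2 were higher and 7 lower untreated, with 9.97 to 10.24 in A/J and 10.25 to 10.41 in C3H. Of 8 ciliated cell genes 7 were higher and 1 lower with NNK, with means of 9.60 to 9.97 in A/J and 9.18 to 9.50 in C3H, and 6 were higher and 0 lower untreated, with 9.38 to 9.76 in A/J and 9.19 to 9.37 in C3H. The macrophage means of the strains thus did not overlap in either treatment, nor did the ciliated means. Of 12 alveolar type 2 genes 6 were higher and 0 lower with NNK, against 3 higher and 5 lower untreated, and of 8 endothelial genes 3 were higher and 1 lower with NNK, against 5 higher and 1 lower untreated. The part of these cells in the strain differences was not tested.

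Stard4, Insig1 and Scap differed between the strains in both treatments. Stard4 lay at 9.40 to 9.62 (median 9.49) in the 8 NNK arrays of A/J and at 8.46 to 8.89 (median 8.71) in those of C3H, a difference of 0.81 ± 0.04 (SE, adjusted p = 7.27e-13). Untreated, it lay at 9.37 to 9.58 (median 9.47) in 10 arrays of A/J and at 8.59 to 8.98 (median 8.78) in 10 of C3H, a difference of 0.67 ± 0.04 (SE, adjusted p = 1.77e-12). Insig1 lay at 11.33 to 11.64 (median 11.44) in A/J and 10.27 to 10.71 (median 10.66) in C3H with NNK, a difference of 0.85 ± 0.05 (SE, adjusted p = 1.69e-11). For both genes no A/J array lay as low as any C3H array, in either treatment. In untreated lungs Insig1 lay at 11.09 to 11.46 (median 11.23) in A/J and 10.54 to 10.93 (median 10.72) in C3H, a difference of 0.55 ± 0.05 (SE, adjusted p = 2.06e-09). Scap ran the other way, with a difference of -0.24 ± 0.05 (SE, adjusted p = 0.000483) with NNK. In untreated lungs it lay at 10.37 to 10.71 (median 10.57) in A/J and 10.77 to 11.06 (median 10.88) in C3H, a difference of -0.33 ± 0.05 (SE, adjusted p = 2.35e-06), and all A/J arrays lay below all C3H arrays. Srebf1 and Srebf2 were higher in A/J with NNK, by 0.22 (adjusted p = 0.000564) and 0.12 (adjusted p = 0.0128), and had untreated differences of 0.00 (adjusted p = 0.995) and -0.01 (adjusted p = 0.907). Insig2 had a difference of 0.04 (adjusted p = 0.349) with NNK and 0.10 (adjusted p = 0.0125) untreated.

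In the cholesterol arm Msmo1 had the largest called excess in A/J. It lay at 10.06 to 10.51 (median 10.31) in A/J and 9.51 to 9.83 (median 9.65) in C3H with NNK, a difference of 0.63 ± 0.05 (SE, adjusted p = 7.5e-10). Untreated, it lay at 9.89 to 10.32 (median 10.07) in A/J and 9.66 to 9.92 (median 9.73) in C3H, a difference of 0.31 ± 0.05 (SE, adjusted p = 5.06e-06). With NNK its A/J and C3H arrays did not overlap. Pmvk lay at 8.63 to 9.26 (median 8.96) in A/J and 8.30 to 8.52 (median 8.39) in C3H with NNK, a difference of 0.52 ± 0.06 (SE, adjusted p = 6.84e-07). Its untreated levels were 8.17 to 9.20 (median 8.64) in A/J and 8.11 to 8.57 (median 8.34) in C3H, a difference of 0.26 ± 0.06 (SE, adjusted p = 0.000656). Pmvk thus separated the strains fully with NNK and not without. Sc5d, at 10.73 to 11.04 (median 10.93) in NNK-treated A/J and 10.39 to 10.55 (median 10.50) in NNK-treated C3H lungs, differed by 0.41 ± 0.03 (SE, adjusted p = 1.37e-09). Untreated Sc5d lay at 10.58 to 10.82 (median 10.70) in A/J and 10.50 to 10.65 (median 10.57) in C3H, a difference of 0.13 ± 0.03 (SE, adjusted p = 0.000788).

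Hmgcs1, the enzyme before mevalonate, lay at 10.46 to 10.96 (median 10.70) in A/J and 10.18 to 10.32 (median 10.26) in C3H with NNK, a difference of 0.46 ± 0.05 (SE, adjusted p = 1.2e-07), and its untreated difference was 0.17 (adjusted p = 0.00303). For Sqle the NNK levels were 9.60 to 10.15 (median 9.97) in A/J and 9.26 to 9.58 (median 9.44) in C3H, a difference of 0.48 ± 0.06 (SE, adjusted p = 1.07e-06), against 0.15 (adjusted p = 0.0293) untreated, where the adjusted p was 0.0676 without the arrays with skin genes and week 6. For Cyp51 they were 8.68 to 9.25 (median 8.99) in A/J and 8.40 to 8.67 (median 8.54) in C3H, a difference of 0.42 ± 0.05 (SE, adjusted p = 1.15e-06), against 0.13 (adjusted p = 0.032) untreated. With NNK the strains did not overlap in any of these 3 genes. Idi1 lay at 9.66 to 10.24 (median 9.97) in A/J and 9.27 to 9.61 (median 9.42) in C3H with NNK, a difference of 0.52 ± 0.07 (SE, adjusted p = 1.15e-06), against 0.15 (adjusted p = 0.0361) untreated. Lss lay at 9.45 to 9.84 (median 9.55) in A/J and 9.00 to 9.27 (median 9.18) in C3H with NNK, a difference of 0.41 ± 0.06 (SE, adjusted p = 9.13e-06), against 0.04 (adjusted p = 0.55) untreated. Both genes also kept the strains apart in every NNK array. Idi1 has another probe set, on which the untreated difference was 0.05 in place of 0.15 and the change with NNK in A/J was 0.37 on both. Fdps differed by 0.41 (adjusted p = 7.68e-05) with NNK and 0.21 (adjusted p = 0.0114) untreated, or 0.10 (adjusted p = 0.236) without the arrays with skin genes and week 6, and Mvk, Mvd and Nsdhl by 0.12, 0.13 and 0.17 with NNK.

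Hsd17b7, Dhcr7 and Fdft1 were lower in A/J when untreated, and their differences with NNK were not called. Hsd17b7 had a difference of -0.16 (adjusted p = 0.0952) with NNK, and untreated it lay at 7.61 to 8.46 (median 8.18) in A/J and 8.33 to 8.94 (median 8.70) in C3H, a difference of -0.54 ± 0.07 (SE, adjusted p = 1.34e-06). Dhcr7 had a difference of -0.00 (adjusted p = 0.963) with NNK, and untreated it lay at 8.95 to 9.36 (median 9.02) in A/J and 9.21 to 9.48 (median 9.35) in C3H, a difference of -0.26 ± 0.05 (SE, adjusted p = 5.67e-05). Fdft1 had a difference of 0.02 (adjusted p = 0.737) with NNK, and untreated it lay at 10.34 to 10.79 (median 10.55) in A/J and 10.59 to 10.92 (median 10.73) in C3H, a difference of -0.19 ± 0.05 (SE, adjusted p = 0.00139). In each of these genes the untreated ranges of the strains overlapped.

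In the fatty acid arm the enzymes that build and extend palmitate were higher in A/J. Acly lay at 11.01 to 11.38 (median 11.14) in A/J and 10.63 to 10.87 (median 10.77) in C3H with NNK, a difference of 0.40 ± 0.04 (SE, adjusted p = 2.92e-08). Untreated, it lay at 10.89 to 11.27 (median 10.995) in A/J and 10.67 to 10.88 (median 10.77) in C3H, a difference of 0.24 ± 0.04 (SE, adjusted p = 5.45e-06). All A/J arrays of Acly lay above all C3H arrays in both treatments. Acaca lay at 10.33 to 11.20 (median 10.65) in A/J and 9.97 to 10.21 (median 10.12) in C3H with NNK, a difference of 0.62 ± 0.07 (SE, adjusted p = 9.02e-08). Its untreated levels were 10.18 to 10.80 (median 10.46) in A/J and 10.03 to 10.30 (median 10.16) in C3H, a difference of 0.34 ± 0.06 (SE, adjusted p = 4.58e-05). The strains overlapped in Acaca only when untreated. Fasn lay at 12.04 to 12.99 (median 12.36) in A/J and 11.72 to 12.05 (median 11.90) in C3H with NNK, a difference of 0.57 ± 0.07 (SE, adjusted p = 7.8e-07), and its untreated levels were 11.84 to 12.55 (median 12.14) in A/J and 11.81 to 12.12 (median 11.93) in C3H, a difference of 0.26 ± 0.06 (SE, adjusted p = 0.00176). Elovl6 lay at 9.30 to 11.15 (median 9.71) in A/J and 8.83 to 9.46 (median 9.28) in C3H with NNK, a difference of 0.77 ± 0.12 (SE, adjusted p = 1.86e-05). Untreated, it lay at 8.93 to 10.54 (median 9.88) in A/J and 8.52 to 9.43 (median 9.15) in C3H, a difference of 0.69 ± 0.11 (SE, adjusted p = 1.44e-05), with overlap in both treatments. Me1 differed by 0.33 (adjusted p = 0.000554) with NNK and 0.20 (adjusted p = 0.0127) untreated, or 0.11 (adjusted p = 0.162) without the arrays with skin genes and week 6. The adipocyte list had means of 7.96 to 9.95 in A/J and 8.03 to 8.57 in C3H with NNK, and its part in these differences was not tested.

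Fads2, Fads1, Elovl1 and Acss2 were lower in untreated A/J lungs. Fads2 had a difference of -0.07 (adjusted p = 0.153) with NNK, and untreated it lay at 11.57 to 11.97 (median 11.70) in A/J and 11.90 to 12.06 (median 11.98) in C3H, a difference of -0.26 ± 0.03 (SE, adjusted p = 1.55e-06). Acss2 had a difference of -0.23 (adjusted p = 0.00437) with NNK, and untreated it lay at 9.44 to 9.91 (median 9.75) in A/J and 9.84 to 10.06 (median 9.97) in C3H, a difference of -0.23 ± 0.06 (SE, adjusted p = 0.00154). Elovl1 and Fads1 had untreated differences of -0.13 (adjusted p = 0.00513) and -0.08 (adjusted p = 0.0318), the last of which was not called without the arrays with skin genes and week 6 (adjusted p = 0.203), and Scd1 one of 0.12 (adjusted p = 0.0292) with NNK. Mfsd2a lay at 9.49 to 11.08 (median 10.33) in A/J and 9.25 to 9.63 (median 9.59) in C3H with NNK, a difference of 0.75 ± 0.13 (SE, adjusted p = 4.29e-05), against 0.15 (adjusted p = 0.267) untreated.

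**Figure D4:**
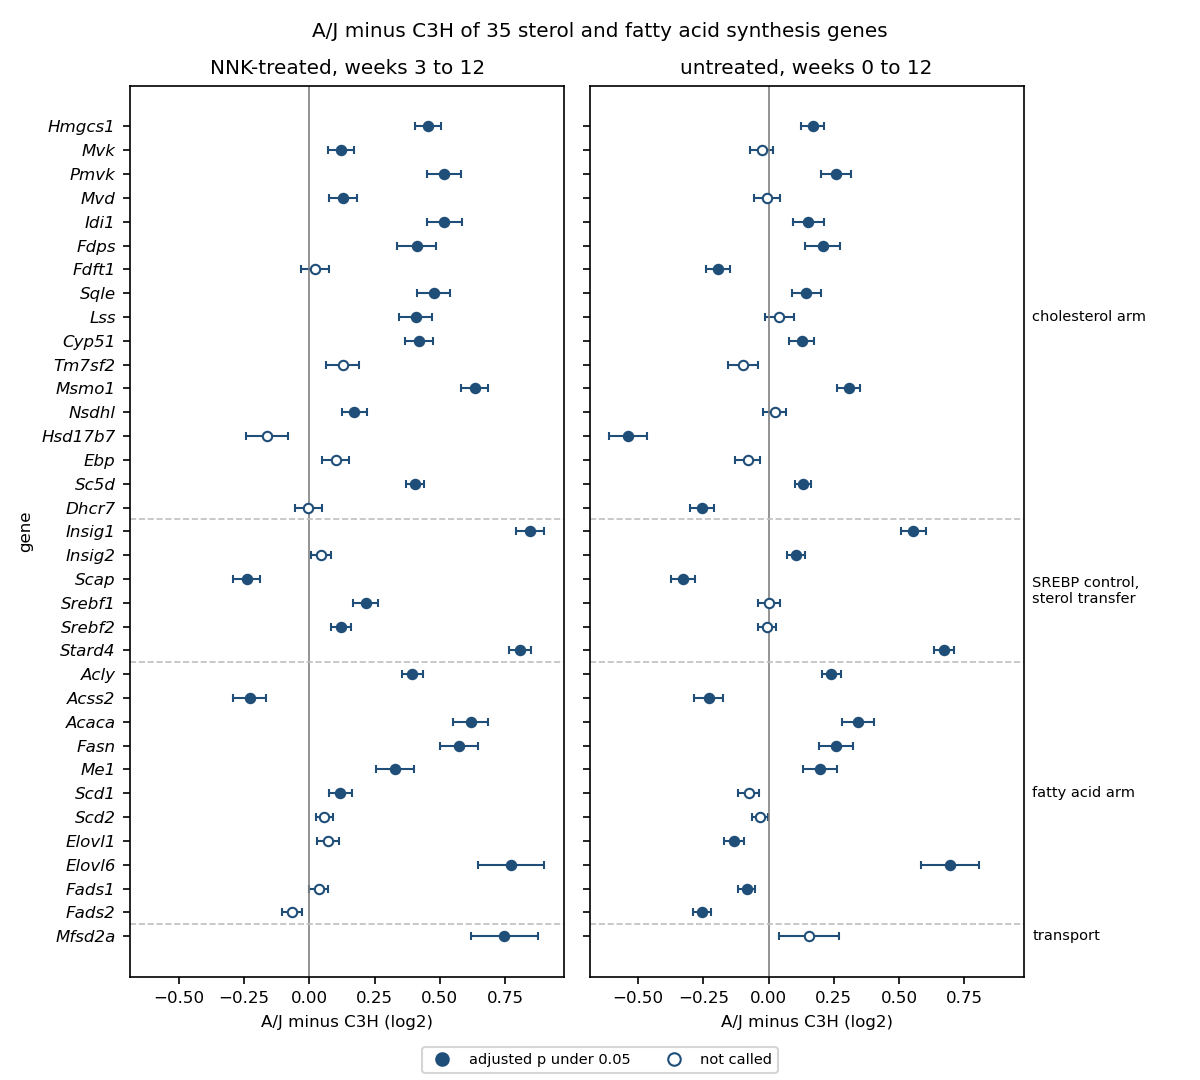
A/J minus C3H (log2) of the 35 genes in NNK-treated lungs of weeks 3 to 12 (left) and untreated lungs of weeks 0 to 12 (right), with the standard error of the fit as bars; filled points have an adjusted p under 0.05. With NNK 23 filled points lie right of 0 and 2 left of it, and untreated 16 lie right and 8 left.

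Over the weeks, untreated A/J lungs had lower levels of some of these genes. Of 35 genes 1 rose and 5 fell in a linear trend from week 0 to week 12, while 17.5% of all genes rose and 5.27% fell. Of all genes called 76.9% rose, but 40.6% did on the deposited scale without quantile normalization, where 1 of the 35 rose and 7 fell. The change over 12 weeks was 0.64 (adjusted p = 0.000784) for Pmvk, and it was -0.36 (adjusted p = 0.0061) for Nsdhl, -0.40 (adjusted p = 0.0219) for Idi1, -0.25 (adjusted p = 0.026) for Scd1, -0.71 (adjusted p = 0.032) for Mfsd2a and -0.40 (adjusted p = 0.0497) for Hsd17b7. Mfsd2a had 9.71 and 10.33 at week 0, 9.41 and 9.78 at week 3, 9.14 and 8.97 at week 6, 9.41 and 9.53 at week 9 and 9.26 and 9.14 at week 12. Its lowest arrays were thus those of week 6, which also held skin genes. Nsdhl had 10.64 and 10.56 at week 0 and 10.10 and 10.19 at week 12, and Idi1 had 9.96 and 10.02 at week 0 and 9.68 and 9.56 at week 12. Scd1 had 13.58 and 13.64 at week 0 and 13.55 and 13.38 at week 12, and Hsd17b7 had 8.36 and 8.40 at week 0 and 8.16 and 7.61 at week 12. All 4 genes had both week 12 arrays below both week 0 arrays. Pmvk had 8.17 and 8.19 at week 0 and 8.64 and 8.68 at week 12, with both week 12 arrays above both week 0 arrays. Only Pmvk and Nsdhl kept their calls without week 6 and the week 0 array with skin genes, and the count was 2 without array 2 of untreated A/J week 0 or array 2 of untreated A/J week 12. Without the 5 arrays with Saa3 3 genes rose and 4 fell. In C3H 0 of 35 genes had a called trend (0.863% of all genes in either direction), and for 0 of 35 did the trends differ between the strains by limma (1.32% of all genes). At an unadjusted p under 0.05 these counts were 3 and 7. The count for the difference was 1 without the 5 arrays with Saa3, without array 1 of untreated A/J week 0 or either array of NNK A/J week 6. The untreated arrays of weeks 3 to 12 also enter the comparison with NNK.

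Of 3 other lists of lipid metabolism 4 genes were called higher and 1 lower in A/J lungs with NNK, where 7.44% of all genes were called higher and 2.6% lower. Of 14 genes of sterol uptake, esterification and efflux 2 were higher and 0 lower: Npc2, which moves cholesterol out of lysosomes, by 0.21 (adjusted p = 0.00414) and Ch25h, a cholesterol hydroxylase, by 0.35 (adjusted p = 0.015). Of 20 tested genes of fatty acid activation and glycerolipid synthesis 2 were higher: Agpat2, which makes phosphatidic acid, by 0.25 (adjusted p = 0.0302) and Acsl5, an acyl-CoA synthetase, by 0.09 (adjusted p = 0.0463). Of 11 genes of fatty acid oxidation 1 was lower, Cpt1a, which admits fatty acids to mitochondria, with a change of -0.22 (adjusted p = 0.00109). The median changes of these lists were -0.01, 0.08 and 0.05. In C3H none of the 3 lists had a called gene by limma, and 2, 2 and 0 genes had an unadjusted p under 0.05. The change differed between the strains for Ch25h, by 0.54 (adjusted p = 0.039), and for Cpt1a, by -0.23 (adjusted p = 0.049).

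Markers of lung cells moved with NNK in A/J as well, where 7.44% of all genes were called higher and 2.6% lower. Of 12 alveolar type 2 genes 5 were called higher (Sftpd, Abca3, Lamp3, Cxcl15, Napsa) and the list's mean lay at 12.70 to 12.91 in NNK arrays, against 12.67 to 12.73 in untreated arrays. Of 8 ciliated cell genes 7 were higher, with means of 9.60 to 9.97 with NNK against 9.38 to 9.76 without. Of 8 endothelial genes 4 were lower, with means of 12.07 to 12.24 with NNK against 12.20 to 12.34 without. Of 8 proliferation genes 3 were higher, with means of 8.62 to 10.04 with NNK against 8.34 to 9.03 without. The cornified skin list was at 7.82 to 8.04 with NNK against 7.79 to 11.09 without, and 6 of its 8 tested genes were lower. Of 10 macrophage genes 2 were higher and 2 lower, and of 8 club cell genes 2 were higher and 2 lower. None of the 4 hepatocyte genes tested was called in A/J by limma, and 1 had an unadjusted p under 0.05. In C3H no gene of these lists was called by limma, although all 8 proliferation genes had an unadjusted p under 0.05. Their part in the changes of sterol and fatty acid synthesis genes was not tested.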

How the data were processed

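The 36 arrays hold total RNA of mouse lung, grouped by the strain, treatment and week of their labels. The values are intensities that the authors deposited, for which the submitters' processing notes name PLIER and Affymetrix Expression Console; versions, background correction, normalization and build are not given in the sources used here. The platform table named 21789 of 35556 probe sets by 1 symbol, 1621 by several and 12146 by none, and only probe sets with 1 symbol were used. The probe set with the highest mean stood for a gene (19938 genes), and genes under the 25th percentile of mean level were left out, which left 14953 to test.

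Each intensity was turned into log2(intensity + 16), and the arrays were quantile-normalized. Limma 3.58.1 in R 4.3.3 fitted 1 mean for each of the 18 groups, which leaves 18 residual degrees of freedom; tests were two-sided, with Benjamini-Hochberg adjustment over all genes tested and calls at an adjusted p under 0.05. The NNK comparison is the mean of the 4 weekly differences, and the trend is the linear change over 12 weeks. The fit was tested on simulated data. Array intensities give no count depth, and the 2 arrays a group limit the precision.

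All members are accounted for, with full values for up to 15 called genes a comparison by smallest p, array values for genes called at a single week, and up to 5 called genes of other lists. The members and lists were chosen with earlier results of these data known. The alternatives were the deposited scale, another pseudocount, other filters, the mean of probe sets, other variance models, array weights, a replicate block, 1 strain alone and leaving out each array. Leaving out week 6 with 1 array of week 0, leaving out the 5 arrays with Saa3 above 10, the array median as a covariate and 1 weight per strain were chosen after seeing the data. Genes of the other lists that were not analysed here include Acat2, Soat1, Nr1h2, Acsl1, Acsl3, Ear1, Siglec5, Cfd and Serpina1a.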

Additional observations from a re-analysis of the deposited data

Results flagged for a closer look

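Among 140 groups of 8 arrays (35 genes, 2 strains, 2 treatments, weeks 3 to 12), 7 held 1 array that stood apart from the other 7 by more than Dixon's critical value, and chance alone gives about 5%. In NNK-treated A/J lungs Lss stood at 9.84 in array 2 of week 9, with 9.45 to 9.62 in the others. In untreated A/J lungs Insig2 stood at 10.41 in array 2 of week 9, with 10.10 to 10.24 in the others, and Fads2 at 11.97 in array 2 of week 3, with 11.57 to 11.76 in the others. In NNK-treated C3H lungs Insig1 stood at 10.27 in array 2 of week 6, with 10.57 to 10.71 in the others. In untreated C3H lungs Cyp51 stood at 8.76 in array 1 of week 3, with 8.53 to 8.64 in the others. There Nsdhl stood at 10.03 in array 2 of week 6, with 10.22 to 10.38 in the others, and Fasn at 12.12 in array 2 of week 12, with 11.81 to 11.95 in the others.

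For 8 genes the test of the difference itself separated the change with NNK in A/J from that in C3H. As given above, 0 of the 8 were called without week 6 and the week 0 array with skin genes, and 0 without the 5 arrays with Saa3. Only Sc5d kept its call in all 36 fits without 1 array. The difference was 0.78 for Mfsd2a, from changes of 0.95 in A/J and 0.17 in C3H. It was 0.42 for Idi1, with changes of 0.37 in A/J and -0.06 in C3H. For Sqle it was 0.35, with changes of 0.35 in A/J and -0.00 in C3H, and for Lss 0.35, with 0.30 in A/J and -0.05 in C3H. Cyp51 had a difference of 0.35 from changes of 0.29 in A/J and -0.06 in C3H, and Msmo1 one of 0.34 from 0.25 in A/J and -0.09 in C3H. Sc5d had 0.30 from 0.21 in A/J and -0.08 in C3H, and Dhcr7 0.30 from 0.27 in A/J and -0.04 in C3H.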

How the results depend on the processing

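No call of the 35 genes in a mean over weeks or in a trend reversed under any alternative. Calls at single weeks were not checked for this gene by gene. The cause of the moves below was not tested unless named. For NNK in A/J over weeks 3 to 12 (26 called) the count was 16 with array weights, 19 with 1 weight per strain and 12 with the A/J arrays alone. It was 14 without week 6 and the week 0 array with skin genes, and 18 to 30 when 1 array was left out. At week 3 (1 called) it was 2 with the filter at the 50th percentile, 2 with trended and robust variances, 0 with array weights, 0 with A/J alone, 7 with the array median as a covariate, and 0 to 14 without 1 array. At week 6 (5 called) it was 8 on the deposited scale, 2 without a filter, 2 with the filter at the 50th percentile, 1 with array weights, 0 with A/J alone, 0 with the median covariate, 1 with 1 weight per strain, and 0 to 8 without 1 array. At week 9 (5 called) it was 8 on the deposited scale, 0 with array weights, 0 with A/J alone, 0 with 1 weight per strain, and 0 to 7 without 1 array. At week 12 (0 called) it was 0 to 1 without 1 array. The untreated A/J trend (6 called) gave 2 with array weights, 2 with A/J alone, 2 without week 6, and 2 to 8 without 1 array. In C3H week 3 gave 1 with 1 weight per strain and 0 to 1 without 1 array, and the trend gave 1 with array weights and 2 with C3H alone. The difference between the strains' changes (8 called) gave 13 on the deposited scale, 4 without a filter, 2 with array weights, 5 with the median covariate, 0 without week 6, and 1 to 21 without 1 array. Without the 5 arrays with Saa3 above 10, which removes samples of A/J weeks 3 and 6 and of C3H week 3, the A/J count was 14 at week 3 and 9 at week 9, the difference between the strains' changes 0 and the difference of trends 1. Without 1 array the untreated strain difference gave 20 to 25, that with NNK 22 to 26, and the difference of trends 0 to 1. The deposited scale moved the share of rising genes among all genes called from 83.2% to 61.4% in the difference of trends. With the array number as a replicate block the A/J week 3 count was 2, that over weeks 3 to 12 was 26, the difference between the strains 7, the trend 5 and the strain difference with NNK 24, and the block moved no other count by over 1.5 times. Deviations of same-numbered arrays correlated from -0.20 to 0.22, over 0.1 in 2 of 8 pairs of groups. The labels do not say whether the numbers pair samples, and these values, with 2 arrays a group, do not settle it.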
